A study of Mus musculus with 21 samples.

Results

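The enzymes that write, maintain and remove 5-methylcytosine were followed in mouse embryonic stem (ES) cells with and without the histone methyltransferase Dot1l. The set held 8 genes of 53796 listed in each expression table: the DNA methyltransferases Dnmt1, Dnmt3a and Dnmt3b, the cofactor Dnmt3l, the hemimethylated DNA binder Uhrf1, and the dioxygenases Tet1, Tet2 and Tet3. They were chosen by exact match of the gene symbol, and all 8 were found in all 3 tables. The series profiled V6.5 ES cells by RNA sequencing in 15 libraries, 3 in each of 5 groups. Dot1l is the methyltransferase of lysine 79 of histone H3, a mark found over the bodies of transcribed genes.

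The first group has no guide RNA in its labels and is given as carrying the analog-sensitive kinase alleles Cdk1as/as, although the design text of the series calls these cells WT. The other 4 groups were cells with a control guide RNA, labelled WT, and Dot1l knockout (KO) cells, each in LIF and under differentiation. In LIF, cells were grown in serum with 100 U/ml leukemia inhibitory factor on inactivated mouse embryonic fibroblasts. The first group, called the ES cell group here, was also grown with 100 U/ml of that factor. Below, the words in LIF refer to the control and KO groups alone. For differentiation, cells spent 2 days on gelatin in serum-free N2B27 medium with 10 µM of the kinase inhibitor Y-27632, and then usually 24 h with Wnt3a at 50 ng/ml plus activin A at 10 ng/ml, a condition called Wnt/activin here. Whether the KO cells were 1 clone or a pool is not stated in the labels, and neither is whether replicates were grown separately. The p-values therefore reflect the spread among these libraries, some of which may be technical.

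DNA methylation in mammals is copied after replication by Dnmt1, which Uhrf1 brings to hemimethylated CpG dinucleotides, and is set at new sites by Dnmt3a and Dnmt3b. Dnmt3l has no catalytic activity of its own and stimulates both de novo enzymes. The Tet enzymes oxidise 5-methylcytosine to 5-hydroxymethylcytosine and further products, which are lost by dilution at replication or cut out by base excision repair. Naive ES cells are known for high Tet1 and Tet2, and the early epiblast for high Dnmt3b.

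The genes of the set also differ in the CpG content of their own start regions, and 1 is shown for each of the 5 genes whose levels changed with the KO under Wnt/activin. The sequences are RefSeq promoter windows on GRCm38.p6, printed 5′ to 3′ on the strand of the gene, and cover the 250 bases before a start site, with every CpG in capitals. Each spans an interval written with its strand: Uhrf1 (its second window) chr17:56304063-56304312 on the plus strand, Dnmt3b chr2:153649199-153649448 on the plus strand, Tet3 chr6:83441679-83441928 on the minus strand, Dnmt3a (its first window) chr12:3806730-3806979 on the plus strand, and Dnmt3l (its first window) chr10:78042037-78042286 on the plus strand.
Uhrf1: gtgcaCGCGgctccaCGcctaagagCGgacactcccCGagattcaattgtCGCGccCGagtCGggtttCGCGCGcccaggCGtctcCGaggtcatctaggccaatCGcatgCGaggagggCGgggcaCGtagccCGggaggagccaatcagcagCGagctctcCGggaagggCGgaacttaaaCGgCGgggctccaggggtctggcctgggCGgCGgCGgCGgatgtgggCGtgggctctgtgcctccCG
Dnmt3b: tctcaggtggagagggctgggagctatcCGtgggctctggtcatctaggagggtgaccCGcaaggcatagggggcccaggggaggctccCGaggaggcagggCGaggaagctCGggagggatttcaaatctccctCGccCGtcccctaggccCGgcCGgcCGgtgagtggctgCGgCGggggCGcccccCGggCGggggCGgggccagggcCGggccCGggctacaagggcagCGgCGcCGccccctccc
Tet3: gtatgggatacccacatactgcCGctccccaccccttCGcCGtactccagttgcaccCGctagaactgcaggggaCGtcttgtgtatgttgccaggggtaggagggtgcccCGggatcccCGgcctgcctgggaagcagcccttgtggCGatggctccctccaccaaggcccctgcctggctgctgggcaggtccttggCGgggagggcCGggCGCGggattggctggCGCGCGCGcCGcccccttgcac
Dnmt3a: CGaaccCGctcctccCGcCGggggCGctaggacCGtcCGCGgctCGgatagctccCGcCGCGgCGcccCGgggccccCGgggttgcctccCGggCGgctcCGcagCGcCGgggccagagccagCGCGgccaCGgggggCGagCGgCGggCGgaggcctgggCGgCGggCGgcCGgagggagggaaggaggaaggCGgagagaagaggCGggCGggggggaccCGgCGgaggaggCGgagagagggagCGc
Dnmt3l: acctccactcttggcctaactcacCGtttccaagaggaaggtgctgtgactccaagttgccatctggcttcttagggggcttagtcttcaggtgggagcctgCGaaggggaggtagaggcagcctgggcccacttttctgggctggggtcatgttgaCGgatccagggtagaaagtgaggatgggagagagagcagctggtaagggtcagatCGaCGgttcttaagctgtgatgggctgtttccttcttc

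The printed stretches hold 30 CpG for Uhrf1, 21 for Dnmt3b and 17 for Tet3, which were higher in KO cells, and 38 for Dnmt3a and 5 for Dnmt3l, which were lower. All 8 genes matched the RefSeq table, with 15 windows of 300 bases that run from 250 before to 50 after a start. The median over all 32851 windows was 7 CpG (quartiles 3 and 20). Tet2 had 57 CpG in its window, more than 99.8% of all windows, and the 3 windows of Dnmt3a had 46, 47 and 18. Dnmt3b had 30, Tet3 22 and Tet1 17. Dnmt3l stood at the other end, with 6, 4 and 3 CpG. The alternative starts of Uhrf1 (12 and 33) and Dnmt1 (2, 12 and 33) spanned a wide range. The E2F motif TTTCCCGC, searched on both strands, was in none of the 15 windows and in 1.07% of all windows. The related motif TTTGGCGC was in 1 window of Dnmt1 and in 0.514% of all windows. CCAAT was in both windows of Uhrf1, in the first and the third of Dnmt1 and in that of Tet3, against 37.4% of all windows. These counts describe letters in a window and show no bound factor.

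By the coordinates of the files, in GRCm38, Dnmt1 lies at chr9:20907209-20959888, Uhrf1 at chr17:56303321-56323486, Dnmt3a at chr12:3806007-3914443, Dnmt3b at chr2:153648690-153687730, Dnmt3l at chr10:78030022-78063622, Tet1 at chr10:62804570-62908996, Tet2 at chr3:133463679-133585053 and Tet3 at chr6:83362373-83459084. Dnmt3l is the member whose locus overlaps another gene with a mean of at least 1 FPKM, Aire, which encodes the autoimmune regulator. Aire had a mean of 6.79 FPKM over the libraries, so reads could be shared at that locus. FPKM scales fragments by transcript length and by library size, so it compares levels between genes per length.

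Facts of the libraries that bear on these values are few. Summed FPKM ranged from 666191 to 1144373 per library, and the depth in reads is unknown. In KO replicate 3 in LIF, 28.6% of that sum was Mir6236, against 2.72% to 8.31% in the other libraries. Dot1l RNA fell with the KO but was still present: 22.1 ± 2.19 FPKM in control and 10.3 ± 1.23 in KO cells in LIF, and 18.4 ± 0.687 and 13.7 ± 0.897 under Wnt/activin (SD, n = 3). Pou5f1, the core factor of pluripotent cells, was between 929 and 1851 FPKM in group means. The 6 primitive streak markers summed to 3.39 to 4.63 FPKM in LIF, to 653 to 707 in control cells under Wnt/activin, and to 1034 to 1070 in KO cells there. Since the samples are bulk RNA, fewer cells of a type and less RNA per cell cannot be told apart.

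In LIF, RNA for the methylation machinery was abundant and RNA for Tet3 was scarce. In control cells the order was Uhrf1 at 237 ± 7.46 FPKM, Dnmt3a at 204 ± 18.8, Dnmt3l at 171 ± 3.78, Tet1 at 91.8 ± 13.5, Dnmt1 at 77.2 ± 2.202, Dnmt3b at 63.4 ± 2.38, Tet2 at 18.7 ± 2.81 and Tet3 at 1.11 ± 0.166 (SD, n = 3). Only Tet1 and Dnmt1, among neighbours in that order, had overlapping libraries. The ES cell group, from another table, put Uhrf1 first as well, at 130.1 ± 10.5 FPKM, overlapping with Dnmt3l at 116 ± 6.77. Next came Tet1 at 92.5 ± 12.7, Dnmt1 at 62.3 ± 13.8, Dnmt3a at 59.1 ± 4.77, Tet2 at 25.8 ± 7.83, Dnmt3b at 20.5 ± 1.04 and Tet3 at 1.17 ± 0.037. Dnmt1 overlapped with Dnmt3a there, and Tet2 with Dnmt3b.

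The order was different under Wnt/activin. Dnmt3b led in control cells at 139 ± 0.484 FPKM, followed by Uhrf1 at 51.1 ± 1.81, Dnmt1 at 46.3 ± 1.27, Dnmt3a at 43.9 ± 4.97, Dnmt3l at 32.8 ± 1.78, Tet1 at 2.73 ± 0.991, Tet3 at 0.999 ± 0.123 and Tet2 at 0.488 ± 0.403. Dnmt1 and Dnmt3a overlapped, as did Tet3 and Tet2. Set side by side, the control level in LIF was 33.6 times that under Wnt/activin for Tet1, 38.3 times for Tet2, 5.21 times for Dnmt3l, 4.66 times for Dnmt3a, 4.64 times for Uhrf1 and 1.67 times for Dnmt1. Dnmt3b went the other way, at 2.19 times its LIF level, and Tet3 differed by a factor of 1.11. The 3 tables were scaled separately, so these ratios between tables carry no test.

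**Figure D1:**
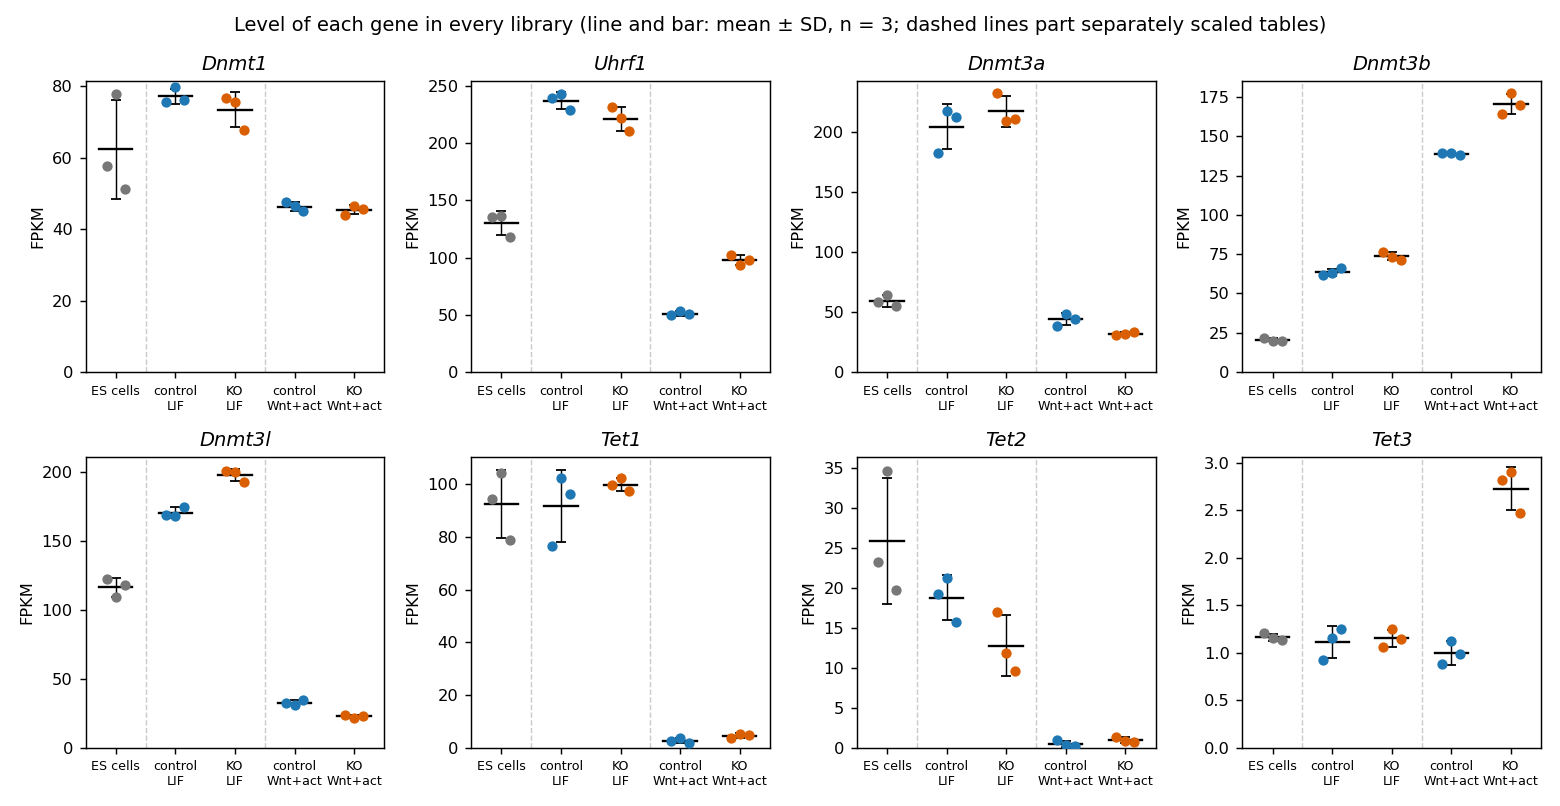
FPKM of each of the 8 genes (y axis, linear from 0) in every library of the 5 groups (x axis), with the mean and SD of 3 libraries as a line and bar. Tet1 and Tet2 are high in the ES cell and LIF libraries and near 0 under Wnt/activin, Dnmt3b is highest under Wnt/activin, and Tet3 stands above its other groups in KO cells under Wnt/activin.

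A single scaling factor for a library or table drops out of ratios between members within a library. A scaling that moves the genes of a library unequally, such as by length and level, would change these ratios, which were taken from the deposited values only. Dnmt3a over Dnmt3b was 2.88 ± 0.308 in the ES cell group, 3.22 ± 0.251 in control and 2.95 ± 0.0866 in KO cells in LIF, 0.316 ± 0.0356 in control and 0.186 ± 0.00902 in KO cells under Wnt/activin (SD, n = 3). Thus Dnmt3a RNA exceeded Dnmt3b RNA in each of the 9 ES cell and LIF libraries and was below it in each of the 6 others. Of the sum of Dnmt3a, Dnmt3b and Dnmt3l, Dnmt3b made up 10.5% ± 0.245 in the ES cell group, 14.5% ± 0.457 and 15.1% ± 0.0637 in LIF, and 64.5% ± 1.54 and 75.8% ± 1.02 under Wnt/activin, control and KO in turn.

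Uhrf1 over Dnmt1, the pair that copies methylation, was 2.13 ± 0.326 in the ES cell group, 3.07 ± 0.0884 in control and 3.01 ± 0.0836 in KO cells in LIF. Under Wnt/activin it was 1.10 ± 0.0510 in control and 2.15 ± 0.154 in KO cells, where the 3 KO libraries (2.31, 2.00 and 2.14) lay above the 3 controls (1.05, 1.15 and 1.12). The KO cells thus had the higher ratio there, while the LIF groups overlapped.

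Tet1 was the most abundant Tet RNA in every group mean. Their summed level was 120 ± 20.2 FPKM in the ES cell group, 112 ± 14.2 and 114 ± 5.01 in LIF, and 4.22 ± 1.14 and 8.28 ± 0.560 under Wnt/activin, control and KO in turn. Tet3 made up 0.993% ± 0.160, 0.997% ± 0.097 and 1.02% ± 0.0966 of that sum in the first 3 groups, and 24.9% ± 7.40 and 33.0% ± 2.73 in the last 2. The sum of Dnmt1, Dnmt3a and Dnmt3b over the Tet sum was 1.19 ± 0.0624 in the ES cell group, 3.11 ± 0.214 and 3.20 ± 0.0923 in LIF, and 57.3 ± 17.1 and 29.9 ± 1.15 under Wnt/activin. In the last condition the 3 controls (50.1, 45.1 and 76.8) lay above the 3 KO libraries (30.4, 28.6 and 30.7). The Tet sum there was low and mostly Tet1 (63.8% in control and 55.4% in KO cells), whose groups overlapped, and Tet2 averaged under 1 FPKM. Differences between KO and control cells in this condition also ran with gene length, as given below. The part of that trend in this ratio was not tested.

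**Figure D2:**
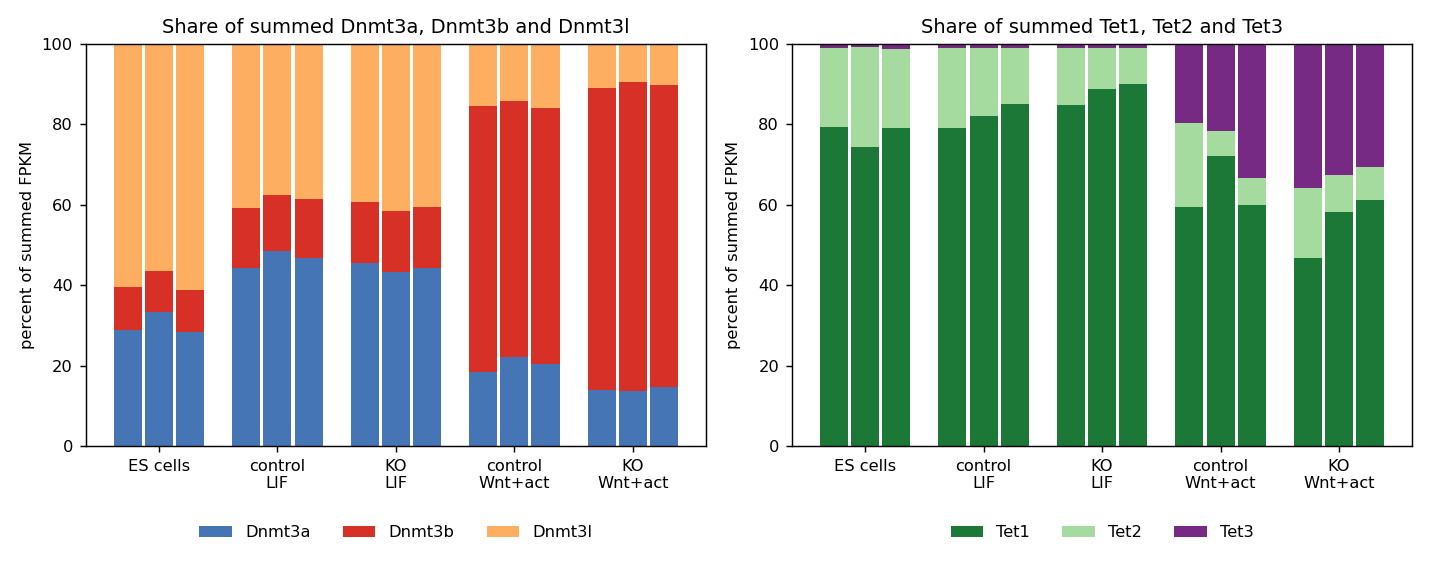
Stacked bars, 1 per library, of each gene's percent of summed FPKM (y axis, 0 to 100) within the Dnmt3 family (left) and the Tet family (right), with libraries grouped by condition on the x axis. Dnmt3b makes up 10.5% to 15.1% of the Dnmt3 sum on average in the ES cell and LIF groups and 64.5% to 75.8% under Wnt/activin, and the Tet3 share of the Tet sum is 0.993% to 1.02% in the former and 24.9% and 33.0% in the latter.

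The comparison of KO with control cells in LIF asked how the methylation genes respond to loss of Dot1l in self-renewing cells. Differences of 7 of the 8 genes lay between -0.10 and 0.21 on the log2 scale, and that of Tet2 was -0.54. One gene of the 8, Dnmt3l, passed the test (limma, adjusted p under 0.05), where 4.41% of all 13153 genes tested did (0.958% higher and 3.45% lower). Of all calls 21.7% were higher as deposited, a share of 45.6% to 51.0% under 3 other scalings. Tests were two-sided, on log2(FPKM + 1), and genes averaging under 1 FPKM in the 6 libraries were left out. The p-values carry Benjamini-Hochberg adjustment over all genes tested. All 8 members passed the level filter in LIF.

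Dnmt3l, the cofactor, had 169, 168 and 175 FPKM in control cells, against 201, 200.3 and 193 in KO cells. The 3 KO libraries lay above the 3 controls. Dnmt3l rose by 0.21 on the log2 scale (SE 0.04, 95% interval 0.11 to 0.31, limma adjusted p = 0.0465). The call was lost when any 1 of the 6 libraries was left out (adjusted p 0.0826 to 0.133) and without the level filter (0.0654). In the authors' deposited table, which called 6.73% of its genes significant in LIF, Dnmt3l was not among them (q = 0.143), and neither was any other member. Aire, on the overlapping locus, was at 8.21 ± 0.600 FPKM in control and 11.9 ± 0.612 in KO cells (SD, n = 3), and its part in the result was not tested.

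Dnmt3b, a de novo enzyme, was at 61.5, 62.7 and 66.1 FPKM in control and at 76.7, 73.1 and 71.5 in KO libraries. Again the groups did not overlap, as for 31.2% of all genes tested in LIF, with KO above control for 8.66%. The difference was 0.21 (SE 0.05, 95% interval 0.09 to 0.34), and it missed the threshold (limma adjusted p = 0.0784), although it passed under each of 3 other scalings (0.29 to 0.31, adjusted p 0.0305 to 0.0359). In the authors' deposited table Dnmt3b was not significant (q = 0.137).

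The other de novo enzyme, Dnmt3a, was at 183, 218 and 212 FPKM in control and 232, 209 and 211 in KO libraries. Its groups overlapped, and the difference was 0.09 (95% interval -0.11 to 0.29, limma adjusted p = 0.543). For the maintenance pair, Dnmt1 was at 75.6, 79.7 and 76.3 FPKM against 76.8, 75.6 and 67.8. The difference of Dnmt1 was -0.07 (95% interval -0.23 to 0.08, limma adjusted p = 0.521). Uhrf1 was at 239.5, 243 and 228 FPKM against 231, 222 and 210.1, a difference of -0.10 (95% interval -0.23 to 0.03, limma adjusted p = 0.297). Both pairs of groups overlapped.

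Among the dioxygenases, Tet2 had the widest difference and the widest error. Tet2 was at 19.2, 21.3 and 15.7 FPKM in control and at 17.0, 11.8 and 9.55 in KO libraries. KO replicate 1 lay within the controls, and the difference of -0.54 (SE 0.21, 95% interval -1.06 to -0.02) did not pass (limma adjusted p = 0.188). Tet1 was at 76.6, 103 and 96.2 FPKM against 99.8, 102 and 97.5, a difference of 0.13 (95% interval -0.14 to 0.40, limma adjusted p = 0.511). Tet3 stayed near 1 FPKM, at 0.929, 1.15 and 1.25 against 1.07, 1.25 and 1.15, a difference of 0.03 (95% interval -0.34 to 0.40, limma adjusted p = 0.922). Markers of other states moved in the same libraries. Of 6 feeder fibroblast markers tested, 2 were called higher, Acta2 (0.85, limma adjusted p = 0.0245) and Timp3 (0.61, limma adjusted p = 0.0389), and the other 4 had differences above 0 (list median 0.58). The call of Timp3 was lost after quantile normalization and with the length and level trend removed. All 10 summed to 39.3 to 60.0 FPKM in control and 73.8 to 81.5 in KO libraries, with Lum and Dcn below 0.1 in both groups. Of the 7 ES cell markers 6 were called lower (list median -0.37), and the calls of Esrrb (-0.48), Sox2 (-0.43) and Zfp42 (-0.37) held under 3 other scalings. The part of these markers in the differences in LIF, those of the lists included, was not tested.

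Upon differentiation the KO moved more of the set, and in both directions. Of the 7 members that passed the level filter, 5 passed the test, against 49.1% of all 12770 genes tested. Uhrf1, Tet3 and Dnmt3b were higher in KO cells (19.6% of all genes were called higher), and Dnmt3a and Dnmt3l were lower (29.5%). Of all calls 39.9% were higher, a share that was 50.1% once the trend of each library with gene length and level was removed. These 5 calls held in each of 13 alternative fits, which included leaving out each library.

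Uhrf1, which brings Dnmt1 to newly replicated DNA, had 49.8, 53.2 and 50.4 FPKM in control cells, against 102, 93.3 and 97.7 in KO cells. Every KO library was far above every control, and the mean was 91.0% higher. Uhrf1 rose by 0.92 on the log2 scale (SE 0.05, 95% interval 0.79 to 1.05, limma adjusted p = 9.99e-05). Only 5.83% of all genes tested had a higher value. Dnmt1, its partner, did not follow: it was at 47.5, 46.4 and 45.0 FPKM against 44.1, 46.5 and 45.7. The groups of Dnmt1 overlapped, with a difference of -0.03 (95% interval -0.15 to 0.09, limma adjusted p = 0.683), but quantile normalization turned it to 0.21 (adjusted p = 0.0108).

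Tet3, the dioxygenase of the oocyte and of differentiated cells, was at 0.882, 1.13 and 0.987 FPKM in control and at 2.82, 2.90 and 2.47 in KO libraries. The groups were far apart, and the mean in KO cells was 2.73 times that in control cells, though still under 3 FPKM. Tet3 rose by 0.90 on the log2(FPKM + 1) scale (SE 0.13, limma adjusted p = 0.00204), which understates a change at this level, and by 1.37 with 0.1 in place of 1 added. Tet3 spans 96.7 kb. Genes of 80 to 125 kb had a median difference of 0.15 in this comparison, against -0.30 for genes under 20 kb, and the value for Tet3 was 0.64 with the trends with length and with level removed together. The separate part of each trend was not tested.

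Tet1 was at 2.67, 3.75 and 1.78 FPKM in control and at 3.66, 5.19 and 4.95 in KO libraries. The groups overlapped, and the difference of 0.61 (95% interval 0.06 to 1.16) missed the threshold (limma adjusted p = 0.0671). Without control replicate 2 it was 0.80 and passed (adjusted p = 0.0303), as it did after median-of-ratios scaling (0.68, adjusted p = 0.0450), and with the length and level trends removed together it was 0.33. Tet2 was at 0.949, 0.317 and 0.199 FPKM against 1.36, 0.816 and 0.675. It was below the level filter, and its groups overlapped.

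Dnmt3b, the most abundant member in this condition, was at 139, 139 and 138 FPKM in control and at 164, 177 and 170.0 in KO libraries. The KO libraries were all higher, by 22.7% in the mean. Here 60.1% of all genes tested had groups that did not overlap, 25.3% with KO above control and 34.8% with KO below. Dnmt3b rose by 0.29 (SE 0.04, 95% interval 0.19 to 0.40, limma adjusted p = 0.0022). That size depends on the scaling: it was 0.73 after quantile normalization and 0.65 with the length and level trend removed.

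Dnmt3a went the other way, from 38.7, 48.6 and 44.2 FPKM in control to 30.5, 31.3 and 33.1 in KO libraries. The KO libraries were all below the controls, and the mean fell by 27.8%. Dnmt3a fell by 0.45 (SE 0.09, limma adjusted p = 0.00793), and after quantile normalization it fell by 0.28. The cofactor Dnmt3l went from 32.2, 31.4 and 34.8 FPKM to 23.8, 21.8 and 22.8, with groups that did not overlap, and its mean fell by 30.4%. Dnmt3l fell by 0.50 (SE 0.06, limma adjusted p = 0.00135), and Aire was near 0 there (0.111 and 0.123 FPKM). The KO cells thus had more Dnmt3b RNA together with less RNA of Dnmt3a and Dnmt3l.

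The authors' deposited table called 45.1% of its genes significant in this condition. In that table Uhrf1, Tet3 and Dnmt3l (each q = 0.00021) and Dnmt3b (q = 0.00126) were significant. Dnmt3a was not significant in the authors' deposited table (q = 0.0513), and neither were Tet1 (q = 0.0767), Tet2 (q = 0.0876) and Dnmt1 (q = 0.845). Dnmt3a is thus the member on which that table and the limma fit differ here.

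Markers of cell identity moved in the same comparison. All 6 primitive streak markers were called higher (list median 1.37), and all 6 calls held under the 3 other scalings. The largest differences were those of Lhx1 (3.53, 7.62 ± 0.816 to 98.5 ± 7.47 FPKM), Mesp1 (2.75), Mixl1 (1.56) and Eomes (1.17). Of 7 ES cell markers, 5 were called lower and 1, Klf4, higher (0.78). Their sum of 2240 to 2393 FPKM in control and 1459 to 1561 in KO cells was mostly Pou5f1 (-0.74), whose call was lost after quantile normalization (-0.06) and with the length and level trend removed (0.01). The lower calls of Esrrb (-0.43) and Zfp42 (-0.50) held under all 3 other scalings. Those of Nanog and Tdgf1 did not, and Tdgf1 turned from -0.17 to 0.31 and 0.44 under the same 2 scalings that ended the call of Pou5f1. The 3 markers of the formative epiblast, the state in which Dnmt3b is known to be high, summed to 140.3 to 146 and 217 to 220.3 FPKM, and among them Fgf5 and Otx2 rose and Pou3f1 fell. Of 7 feeder fibroblast markers tested, 4 rose and 1 fell. The collagen genes Col1a1 (0.88), Col1a2 (1.13) and Col3a1 (1.15) and the protease inhibitor Timp3 (0.80) rose under each of the 3 other scalings too. The fall was of Tagln, a smooth muscle actin binder (270.2 ± 17.8 to 78.4 ± 2.80 FPKM), which carried the sum of all 10 markers from 291 to 323 FPKM in control to 124 to 133 in KO cells. Lum, which marks fibroblasts, averaged below 0.1 FPKM in both groups. The part of these shifts in the changes of the members was not tested.

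**Figure D3:**
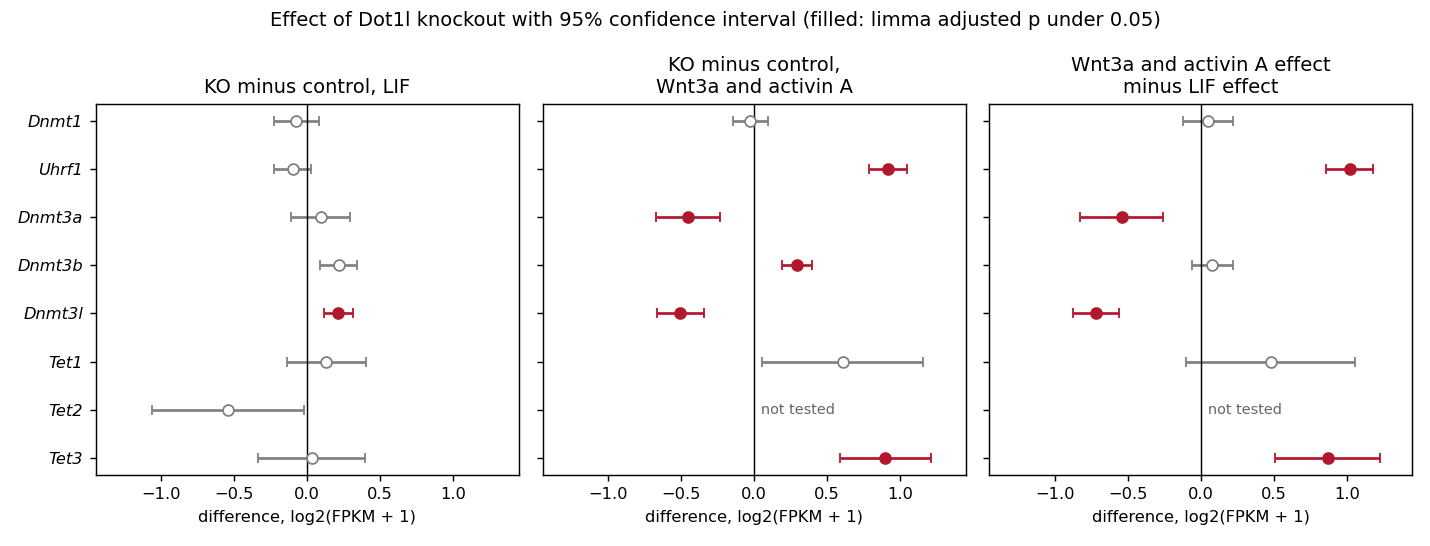
Difference between KO and control cells on the log2(FPKM + 1) scale (x axis) for each gene (y axis) in LIF, under Wnt/activin, and the second minus the first, with 95% intervals and filled points where the limma adjusted p is under 0.05. In LIF Dnmt3l is filled, under Wnt/activin 5 genes are, and the difference between conditions is filled for Uhrf1, Tet3, Dnmt3a and Dnmt3l.

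The KO effect itself differed between the conditions for 4 of 7 members tested in both, by an interaction term over 12 libraries, where 38.3% of 11783 genes were called. The effect under Wnt/activin minus that in LIF was 1.02 for Uhrf1 (SE 0.07, limma adjusted p = 8.41e-06) and 0.87 for Tet3 (SE 0.16, limma adjusted p = 0.00197). It was -0.72 for Dnmt3l (SE 0.07, limma adjusted p = 4.88e-05), the member whose KO effect was called in both conditions with opposite signs. The call of Dnmt3l in LIF was lost when any library was left out, as given above. For Dnmt3a the difference of the effects was -0.54 (SE 0.13, limma adjusted p = 0.00681). The differences of Dnmt3b (0.08, 95% interval -0.06 to 0.22), Tet1 (0.48, 95% interval -0.10 to 1.06) and Dnmt1 (0.05, 95% interval -0.12 to 0.22) did not pass. That of Dnmt3b did pass with quantile normalization (0.43) and with the length and level trend removed (0.34).

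Genes that work with these enzymes were read from lists. The median difference over all genes tested was -0.07 in LIF and -0.08 under Wnt/activin. Of all genes tested, 4.41% were called in LIF (0.958% higher and 3.45% lower). Under Wnt/activin 49.1% were called (19.6% higher and 29.5% lower). Some calls did not hold when libraries were rescaled by median of ratios, by quantiles or by removing the length and level trend, and a call that held under all 3 is termed robust to scaling. That term covers scaling alone. Over all genes tested in LIF, 580 were called with every library, and 1 to 27 when a library was left out. The list counts are descriptions to be read beside those medians and shares.

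Of the 11 partners of maintenance methylation tested in LIF, 1 was higher and 1 lower (median -0.13). Dppa3, which keeps Uhrf1 off chromatin in the oocyte and in naive cells, rose from 42.4 ± 3.04 to 70.1 ± 5.62 FPKM (0.71, limma adjusted p = 0.0213). Pcna, the replication clamp, fell from 178 ± 2.26 to 151 ± 0.683 FPKM (limma adjusted p = 0.0304), a call lost under the other scalings. Under Wnt/activin 2 of the 11 rose and 4 fell (median -0.12). Cdca7l, a relative of the activator of the remodeller Hells, went from 17.9 ± 0.0893 to 28.8 ± 1.57 FPKM. Uhrf2, the paralog of Uhrf1, went from 24.3 ± 3.24 to 31.2 ± 0.707 FPKM, and these 2 rises were robust to scaling. The 4 falls, of Lig1 (-0.52), Pclaf (-0.38), Hdac1 (-0.37) and Kat5 (-0.26), were not. With quantile normalization the list had 6 higher and 0 lower.

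The list for targeting of de novo methylation holds histone methyltransferases, zinc finger repressors and the Mga complex, which silences germline genes. In LIF 0 of 16 were higher and 3 lower (median -0.13). Zfp42, a repressor of naive cells, fell from 135 ± 1.69 to 104 ± 1.55 FPKM (limma adjusted p = 0.0177), the fall that was robust to scaling. Zfp57, which protects imprints, fell from 127 ± 5.11 to 97.3 ± 6.23 FPKM, and Ehmt2, a histone H3 lysine 9 methyltransferase, fell from 76.9 ± 4.88 to 61.0 ± 1.52. Prdm14, a repressor of Dnmt3b, was at 5.76 ± 0.522 and 3.90 ± 0.269 FPKM (limma adjusted p = 0.0600), named after its values were seen. Under Wnt/activin 3 of 15 rose and 5 fell (median -0.14). Mga itself rose from 3.79 ± 0.859 to 14.5 ± 1.02 FPKM (1.71, limma adjusted p = 0.000314). The histone H3 lysine 36 methyltransferase Setd2, whose mark the de novo enzymes read, fell from 60.0 ± 3.77 to 40.8 ± 1.59 FPKM (-0.54, limma adjusted p = 0.000983). Zfp42 also fell (-0.50), and these 3 calls were robust to scaling. Trim28 was called lower (-0.47) but higher after quantile normalization (0.19).

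Readers of methylated DNA did not pass in LIF, 0 of 8. Under Wnt/activin 3 of 7 rose and 2 fell (median 0.17). Zbtb33, the methyl-CpG binder also called Kaiso, rose from 1.10 ± 0.133 to 3.53 ± 0.376 FPKM (1.10, limma adjusted p = 0.000909). Mbd3 fell as deposited (-0.54), a call that did not hold under all scalings.

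Of the 17 partners and later steps of Tet oxidation tested in LIF, 1 was higher and 2 lower (median -0.21). Gadd45g rose from 26.5 ± 3.87 to 45.0 ± 3.70 FPKM (limma adjusted p = 0.0309). Idh2, which makes the Tet cosubstrate 2-oxoglutarate in mitochondria, fell from 147 ± 12.7 to 87.8 ± 5.26 FPKM (-0.73, limma adjusted p = 0.0182). Apex1, the endonuclease of base excision repair, fell from 215 ± 14.4 to 159 ± 0.709 FPKM, a call lost with the trend removed. Under Wnt/activin 4 of 18 rose and 8 fell (median -0.08). The 4 that rose were Ogt, the sugar transferase that binds Tet proteins (11.002 ± 0.912 to 26.7 ± 0.892 FPKM), the glycosylase Tdg (48.0 ± 5.23 to 70.1 ± 10.1), Idh1 (37.6 ± 0.440 to 52.2 ± 1.402) and the ligase Lig3 (20.5 ± 1.70 to 28.6 ± 2.26). All 4 rises were robust to scaling. The deepest falls were of Gadd45b (45.5 ± 0.972 to 11.2 ± 2.29 FPKM), the repair scaffold Xrcc1 (120 ± 7.14 to 52.8 ± 2.61), Gadd45a (33.7 ± 3.31 to 16.0 ± 1.19) and Idh2 (97.3 ± 1.75 to 48.1 ± 5.62), and these 4 were robust to scaling too. Idh2 thus fell in both conditions, while Idh1 rose in the second.

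Among 13 genes of methyl donor metabolism, 0 rose and 1 fell in LIF (median -0.03), and 2 rose and 4 fell under Wnt/activin (median -0.14). Tdh, the threonine dehydrogenase that feeds one-carbon metabolism in mouse ES cells, fell from 343 ± 24.4 to 239 ± 3.15 FPKM in LIF and from 27.9 ± 3.23 to 11.03 ± 0.863 under Wnt/activin. Both falls were robust to scaling (-0.52 and -1.26). Ahcyl2 (1.48) and Ahcyl1 (0.91), relatives of the enzyme that clears S-adenosylhomocysteine, rose. Mat2a, the S-adenosylmethionine synthase, was called lower as deposited (-0.54) but not under all scalings.

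Of 14 tested germline genes known to be silenced by promoter methylation, 5 were higher and 0 lower in LIF, with a list median of 0.58. Over all genes tested in LIF, 0.958% were called higher. Of the 16 listed, 11 averaged at least 1 FPKM in control and 14 in KO cells. Some genes thus passed the level filter only through their KO values, so the number tested and the list median depend in part on that filter. Mael rose from 17.1 ± 1.80 to 34.4 ± 2.51 FPKM, Tuba3a from 14.2 ± 0.983 to 24.9 ± 0.266, Dazl from 1.97 ± 0.0557 to 4.00 ± 0.149 and Tex19.1 from 76.0 ± 2.43 to 105 ± 2.77, each past the limma threshold. In the same comparison 6 of 7 ES cell markers were called lower and 2 of 6 feeder markers higher, as given above, and their part in the result was not tested. Under Wnt/activin 4 of the 16 listed genes passed the level filter and none was called (limma), and their values were 12.3 to 14.5 FPKM summed over the list in control and 13.9 to 14.4 in KO cells.

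**Figure D4:**
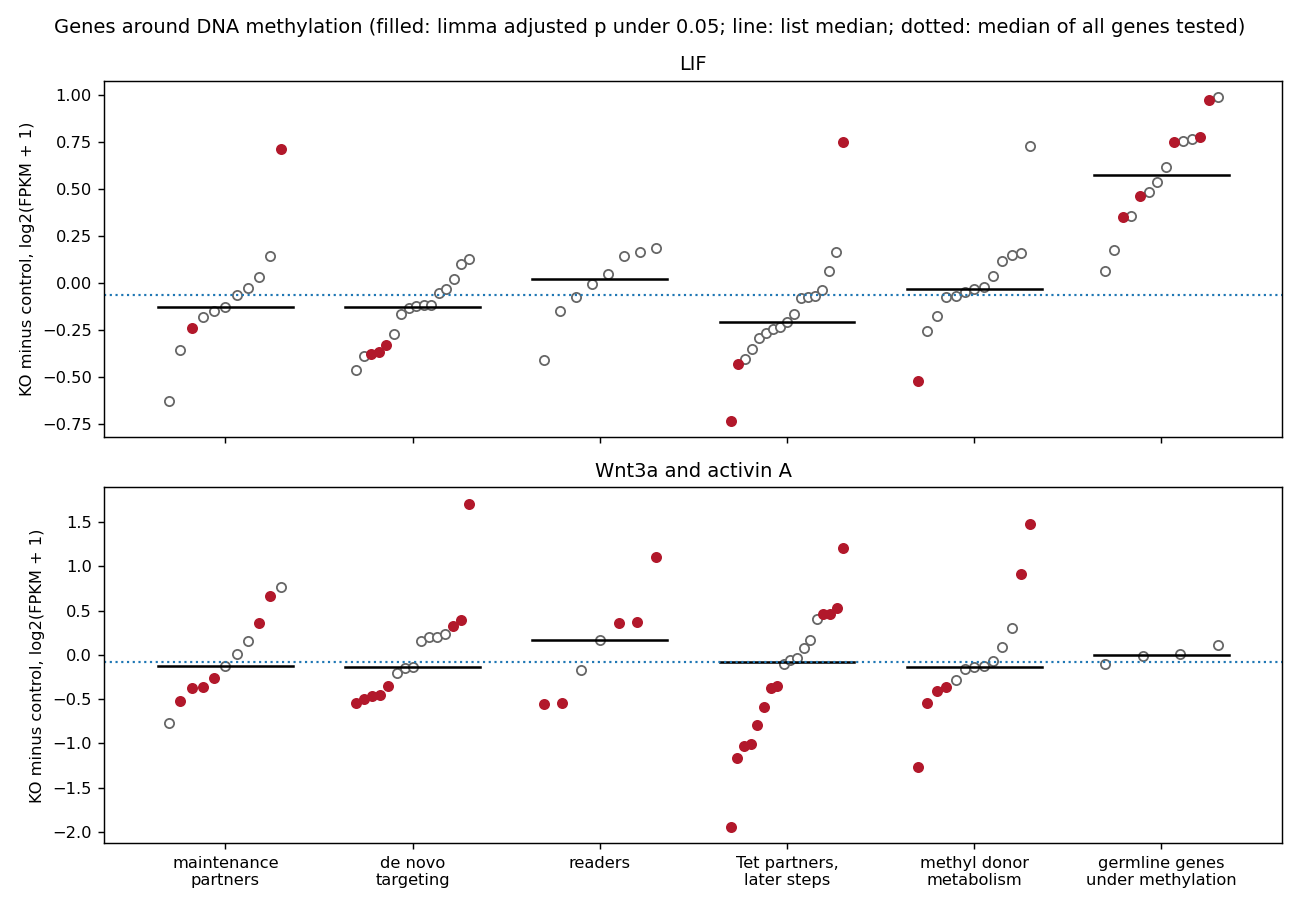
Difference between KO and control cells on the log2(FPKM + 1) scale (y axis) of each tested gene in 6 lists (x axis), in LIF and under Wnt/activin, as deposited, with filled points where the limma adjusted p is under 0.05, a line at each list's median and a dotted line at the median of all genes tested. The germline list has a median of 0.58 in LIF, where some of its genes passed the level filter only through their KO values. Under Wnt/activin most lists hold filled points on both sides of 0, of which several below 0 were not called under other scalings.

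Across the 15 libraries the members fell into patterns, given as Pearson r of log2(FPKM + 1). These points share tables, conditions and scaling, so r is a description. Tet1 and Tet2 were the most alike pair (0.967), and Dnmt3l followed Tet1 (0.952). Dnmt3b ran against Tet2 (-0.861) and Tet1 (-0.780). Among genes averaging 5 FPKM or more, those most like each member were Rfc1 for Dnmt1 (0.968), Ube3c for Uhrf1 (0.990), Plcg2 for Dnmt3a (0.992), Myc for Dnmt3b (0.985), Gtsf1l for Dnmt3l (0.995), Ide for Tet1 (0.995), Tmem184b for Tet2 (0.993) and Arl4d for Tet3 (0.972). The next after these were Phc1, Slc38a2, Tcf15, Dcun1d2, Tdrd12, Alpl, Lrrc34 and Kmt2d in the same order of members, and the third were Ankrd24 for Dnmt1, Spred2 for Uhrf1, Mt2 for Dnmt3a, Dppa5a for Dnmt3l, Capn5 for Tet1, Zbtb44 for Tet2 and Soat1 for Tet3.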

How the data were processed

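RNA was measured in 15 libraries, in 5 groups of 3 taken from the sample titles. The authors deposited 1 FPKM value per gene and library, and in the KO tables their own p-value and q-value per gene. The tools Cufflinks 2.2.1, Cuffdiff and STAR 2.5.4a stand in the submitters' processing notes, without their roles. No source used here gives the library kit, strand setting or filters. Because FPKM is relative to library size, abundant genes that change shift the others.

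Each KO table was fitted by itself on log2(FPKM + 1) with limma's trend (version 3.58.1, in R 4.3.3), where the mean of the 6 libraries reached 1 FPKM, and a threshold of 0.05. The script was tested on simulated data. The interaction used genes tested in both tables. Alternatives were another pseudocount, no filter, 3 scalings, no trend, a replicate block and leaving out each library. The members and lists were chosen with earlier results of these data known. Named were the members, Dot1l, up to 4 called genes per list and comparison with the largest change, and the 3 genes most like each member. Some genes that this rule names are not reported here. Aire, Prdm14, Uhrf2, Kat5, Tdg, Idh1 and Lig3, and under Wnt/activin Esrrb, Tdgf1 and Timp3, were named after their values were seen. Deposited peak lists, with 1 library per treatment, did not match the GRCm38 coordinates of the tables and were not joined to genes.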

Additional observations from a re-analysis of the deposited data

Results flagged for a closer look

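The effect of the Dot1l KO under Wnt/activin differed from that in LIF, by the interaction term in limma, for 4 of the 7 members tested and for Dot1l. Of all 11783 genes tested, 38.3% were called by that term. Genes of the lists were not part of this screen. The difference of the effects on the log2 scale was 1.02 for Uhrf1, 0.87 for Tet3, -0.54 for Dnmt3a, -0.72 for Dnmt3l and 0.63 for Dot1l itself (adjusted p 8.41e-06, 0.00197, 0.00681, 4.88e-05 and 0.00426 in that order). Each stayed past the threshold in all 18 alternative fits. Dot1l RNA was thus lowered less under Wnt/activin (-0.40) than in LIF (-1.04), and the part of that in the differences of the other 4 genes was not tested.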

How the results depend on the processing

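In LIF 580 genes were called, and 633 with 0.1 in place of 1 added. The count was 259 without a filter, 360 with median-of-ratios scaling, 269 with quantile normalization, 253 with the length and level trend removed, 236 without limma's trend, and 1 to 27 when a library was left out. With the replicate number as a block it was 0 (2733 at an unadjusted p under 0.05). Members called in LIF were 0 without a filter, without limma's trend, with the replicate block and with any library left out, and 2 with each of the 3 scalings, which added Dnmt3b. With 0.1 added, Dnmt3l stayed the 1 member called. Dnmt3l lost its call in LIF without limma's trend (adjusted p = 0.110) and in the block (0.171), and Dot1l lost its call in LIF in the block (0.139) and with a library left out (0.0609 to 0.0867). Of calls in LIF 21.7% were higher as deposited, and 45.6%, 47.2% and 51.0% with the 3 scalings. Same-numbered libraries did not pair: the correlations of their deviations were 0.04, 0.02 and -0.003 in LIF and -0.01, 0.06 and 0.004 under Wnt/activin. Under Wnt/activin 6273 genes were called (5185 to 6308 over the alternatives) and 4513 in the interaction (3413 to 4557). The one change of sign among the members with a fit past the threshold was Dnmt1 under Wnt/activin with quantile normalization (0.21). Differences of Dnmt1 and Tet3 that did not pass also changed sign in some fits, such as Tet3 in LIF (-0.12 to 0.08). The cause of these changes was not tested. The depth of the libraries is unknown, so the counting error of low values such as those of Tet2 and Tet3 cannot be given.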
